A study of Oryctolagus cuniculus with 9 samples.

Results

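The genes described here are 7 integrin subunits measured in rabbit knee cartilage: ITGA2 (ENSOCUG00000011387), ITGA10 (ENSOCUG00000003032) and ITGA11 (ENSOCUG00000017726), ITGA5 (ENSOCUG00000013369), ITGB4 (ENSOCUG00000014951), ITGAM (ENSOCUG00000001587) and ITGB1 (ENSOCUG00000003623). They were chosen by gene symbol, with earlier results of these data known, and are 7 of the 14870 genes listed. Integrins are cell surface receptors made of 1 alpha and 1 beta chain, which join the matrix outside a cell to the actin or keratin skeleton inside it. Chondrocytes hold on to collagen mainly through alpha chains that pair with the beta 1 chain, among them the alpha 10 chain, which is known as a chondrocyte collagen receptor, while the alpha 11 and alpha 2 chains are the usual collagen receptors of fibroblasts and other mesenchymal or epithelial cells. The alpha 5 chain binds fibronectin, the beta 4 chain is the laminin receptor of epithelial hemidesmosomes, and the alpha M chain (CD11b) belongs to monocytes, macrophages and granulocytes.

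RNA was sequenced from 9 libraries of New Zealand white rabbits that were 4 to 5 months old when selected for surgery. Tissue was collected 12 weeks after surgery. Of the libraries, 3 came from healthy cartilage, 3 from untreated defects and 3 from defects treated with CLCS, a porous scaffold of collagen and chondroitin sulfate. Each animal carried a drilled full-thickness defect in the trochlear groove of both knees, filled with CLCS on the right and left empty on the left. The study's scheme takes healthy cartilage from the condyle, so injury and joint site cannot be told apart in a comparison with healthy cartilage. No allele or transgene was involved, and the labels do not say that libraries of a group came from different rabbits, so the p-values measure the spread between these libraries, which may be technical in part.

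The values are normalised read counts, that is, reads per gene divided by a size factor of the library, and they could be returned to whole reads. The reads summed to 724986 to 1226408 per library. The strand setting of the count is not stated, so reads may stand under a gene of the opposite strand. The gene with the most reads took 4.52% to 49.4% of a library. As a check of the labelled tissue, COL2A1, the main cartilage collagen, had 6874 to 8610.0 normalised reads in healthy cartilage. The other listed chondrocyte markers there were ACAN (307 to 574), COL11A2 (348 to 1065), COL11A1 (205 to 325) and COL9A2 (166 to 474). Lower ones were COL9A1 (17.9 to 97.6), HAPLN1 (31.5 to 40.5) and SOX9 (3.61 to 41.6). MATN1 and MATN3, also of this list, had at most 2 and 3 reads in any library. Untreated library 3 stood apart from the other libraries of defects, with 458 normalised reads of COL2A1 against 4062 and 8816 in the other untreated libraries. Member values that move most with it are also given without it.

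Groups were compared in pairs by limma (linear models with moderated variances) fitted to log2(value + 1) over all tested genes, and p-values received the Benjamini-Hochberg adjustment. Calls require an adjusted p below 0.05. All 7 genes had enough reads to be tested in each comparison, with 7 to 333 reads per gene and library. Recovered reads on a gene such as ITGA10 number 7 to 29 per library, so counting error alone is large. Both comparisons with healthy cartilage used the same 3 healthy libraries. Libraries that may come from the same animal were not paired in these fits.

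None of the 7 integrin genes was called in any of the 3 comparisons. In untreated defects against healthy cartilage, limma called 0 of 7 members, beside 2.55% of the 3496 genes tested, and 0 members had an unadjusted p under 0.05, as 16.6% of all tested genes did. In CLCS treated defects against healthy cartilage, limma called 0 of 7 members, beside 3.16% of 3294 genes, and 1 member, ITGA2, had an unadjusted p under 0.05, as 17.5% of all tested genes did, so 1 of 7 is near the background. In CLCS treated against untreated defects, limma called 0 of 7 members and 0 of the 3275 genes tested, a background of 0%. There, 95 genes, none of them a member, had an unadjusted p under 0.05. edgeR and DESeq2 on the recovered reads called 0 members in each comparison and 0 genes in CLCS treated against untreated defects. The libraries of untreated and healthy samples did not overlap for 0 of 7 members (22% of all tested genes), those of CLCS and healthy samples for 1 of 7 (24.2%) and those of CLCS and untreated samples for 0 of 7 (8.34%).

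The median log2 fold change of the 7 genes was 0.02 in untreated and -0.08 in CLCS samples against healthy ones, and 0.09 between CLCS and untreated samples. Over all tested genes the medians were -0.02, -0.08 and -0.00. The 95% intervals of the members reached from -2.24 to 1.70, from -2.15 to 1.82 and from -1.17 to 1.28 on the log2 scale, so the data with 3 libraries per group do not exclude differences of that size in several members.

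**Figure D1:**
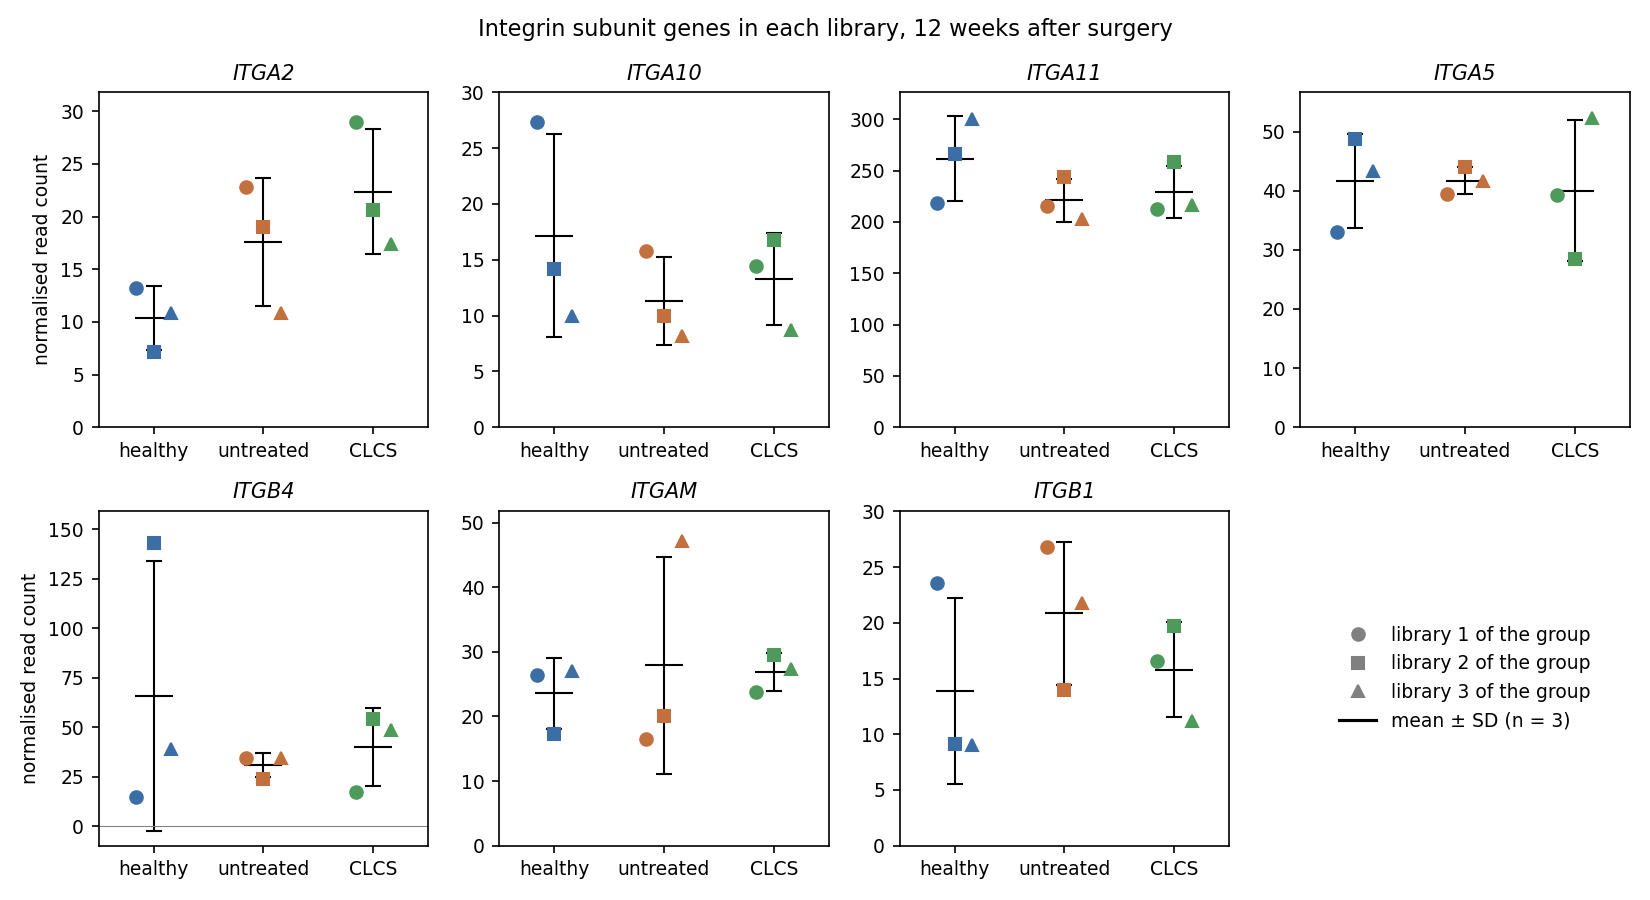
Normalised read count (y axis, linear) of each integrin gene in the 3 healthy, 3 untreated and 3 CLCS libraries, with a black bar for the mean ± SD of 3 libraries. ITGA2 lies at 17.4 to 28.9 in CLCS and 7.10 to 13.2 in healthy libraries, ITGB4 has a single healthy library at 143, and ITGAM a single untreated library at 47.1.

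Among the collagen receptors, ITGA2 encodes the alpha chain of the alpha 2 beta 1 receptor, which binds fibrillar collagen I most strongly. Normalised reads of ITGA2 were 13.2, 7.10 and 10.8 in healthy cartilage, 22.8, 19.0 and 10.9 in untreated defects and 28.9, 20.7 and 17.4 in CLCS treated defects. All 3 CLCS libraries were above all 3 healthy libraries, while untreated library 3 lay within the healthy range. The log2 fold change was 1.04 (SE 0.33, 95% interval 0.26 to 1.82) in CLCS against healthy samples, a fold of 2.06, and limma gave an adjusted p = 0.157. Across the alternative analyses the log2 fold change of that comparison lay between 0.82 and 1.22 and the adjusted p between 0.130 and 0.455. Untreated against healthy samples differed by 0.69 (SE 0.38, 95% interval -0.21 to 1.58, limma adjusted p = 0.448), and by 0.98 without untreated library 3. CLCS against untreated samples differed by 0.36 (95% interval -0.47 to 1.19), by 0.066 without untreated library 3 and by 0.16 without CLCS library 1. The group means rank CLCS (22.3 ± 5.9 SD), untreated (17.6 ± 6.1) and healthy (10.4 ± 3.1, n = 3 each), and neighbours in that order overlap.

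ITGA10 encodes the alpha 10 chain, which binds collagen II in cartilage. Its normalised reads were 27.3, 14.2 and 9.94 in healthy cartilage, 15.8, 10.002 and 8.16 in untreated defects and 14.5, 16.7 and 8.72 in CLCS treated defects. Healthy library 1 was the highest and the remaining healthy libraries lay among the defects, so the groups overlap. Differences from healthy samples on the log2 scale were -0.49 (SE 0.44, 95% interval -1.52 to 0.53) in untreated and -0.27 (SE 0.43, 95% interval -1.27 to 0.72) in CLCS samples, with limma adjusted p = 0.665 and 0.795. Without healthy library 1, the CLCS difference turned to 0.10.

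ITGA11 encodes the alpha 11 chain, which binds collagen I on fibroblasts and osteogenic cells, and had more reads than any other member in each library. It had 174 to 333 reads, while its partner ITGB1 had 9 to 34. Whether the reads assigned to ITGA11 came from its transcript was not tested. Normalised reads were 219, 266 and 301 in healthy cartilage, 216, 244 and 203 in untreated defects and 213, 259 and 217 in CLCS treated defects. The lowest healthy library lay within the range of both defect groups. The log2 fold change was -0.24 (95% interval -0.89 to 0.42) in untreated and -0.18 (95% interval -0.81 to 0.45) in CLCS against healthy samples. CLCS against untreated samples differed by 0.05 (95% interval -0.53 to 0.63), the narrowest of the members' intervals there.

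Read shares within a library do not depend on the size factor. The number of reads also depends on transcript length, which was not used here, so such a share is not a ratio of transcript levels and is compared between libraries only. ITGA11 held 88.9% to 96.8% of the reads on ITGA10 and ITGA11 together in healthy cartilage, 93.2% to 96.1% in untreated and 93.6% to 96.1% in CLCS treated defects. The lowest share was that of healthy library 1, 88.9% with an exact (Clopper-Pearson) 95% interval of 84.4% to 92.4%. These intervals cover counting error only. ITGA2 held 32.6% to 52.2% of the reads on ITGA2 and ITGA10 in healthy cartilage, 57.1% to 65.5% in untreated and 55.3% to 66.7% in CLCS treated defects. All 6 libraries of defects were thus above the 3 healthy libraries in this share. It rests on 21 to 49 reads per library, was chosen after the values were seen and was given no test. The interval of healthy library 3, 30.6% to 73.2%, includes the share of every library from defects.

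ITGA5 encodes the alpha chain of the classical fibronectin receptor. Its normalised reads were 33.0, 48.7 and 43.4 in healthy cartilage, 39.4, 44.0 and 41.7 in untreated defects and 39.3, 28.5 and 52.3 in CLCS treated defects. The untreated libraries sat inside the healthy range, and the CLCS libraries spread beyond it on both sides. Against healthy samples it had a log2 fold change of 0.02 (95% interval -0.65 to 0.68) in untreated and -0.08 (95% interval -0.84 to 0.68) in CLCS treated defects. Between the CLCS and untreated groups it was -0.10 (95% interval -0.79 to 0.60).

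ITGB4 encodes the beta 4 chain, the partner of the alpha 6 chain in hemidesmosomes. Its normalised reads were 15.1, 143 and 38.8 in healthy cartilage, 34.7, 24.0 and 34.5 in untreated defects and 17.6, 54.1 and 48.6 in CLCS treated defects. Healthy library 2 had the highest level and healthy library 1 the lowest, so the healthy libraries enclosed all others. Reads on ITGB4 spread about the group means with a chi-square of 28.3 per degree of freedom, against 1.59 to 4.37 for the other members, where counting noise alone gives about 1. The log2 fold change was -0.52 (SE 0.74, 95% interval -2.24 to 1.21) in untreated and -0.29 (SE 0.80, 95% interval -2.15 to 1.57) in CLCS against healthy samples. Without healthy library 2 both turned, to 0.32 and 0.55, so their sign rests on that library. ITGA6, the partner chain, had 1 to 4 reads in every library, and EPCAM was the only one of 4 listed epithelial markers with enough reads to be tested. KRT5 and TP63, which mark epithelial cells that use hemidesmosomes, had 0 reads in all healthy libraries.

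ITGAM encodes the alpha M chain of complement receptor 3, and its partner is the beta 2 chain, ITGB2. Normalised reads of ITGAM were 26.4, 17.3 and 27.1 in healthy cartilage, 16.5, 20.0 and 47.1 in untreated defects and 23.8, 29.5 and 27.4 in CLCS treated defects. Untreated library 3 was the highest, and the other untreated libraries were among the lowest. Limma estimated a log2 fold change of 0.11 (SE 0.44, 95% interval -0.93 to 1.15) in untreated and 0.20 (SE 0.29, 95% interval -0.48 to 0.88) in CLCS against healthy samples. Without untreated library 3 the untreated difference was -0.33, and the CLCS against untreated difference went from 0.09 to 0.53.

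Reads on ITGB2 were 0, 0 and 1 in healthy cartilage, 3, 3 and 2 in untreated and 1, 0 and 0 in CLCS treated defects, while ITGAM had 17 to 52 reads in the same libraries. A count of 0 allows up to 3 reads of ITGB2. Whether the reads assigned to ITGAM came from its transcript was not tested. TYROBP, an adaptor of myeloid receptors, had 7, 8 and 10 reads in healthy cartilage, 17, 9 and 166 in untreated and 27, 29 and 28 in CLCS treated defects. Untreated library 3 was the highest for TYROBP as for ITGAM. TYROBP rose by 1.82 (SE 0.27, limma adjusted p = 0.0188) in CLCS against healthy samples, a call lost in 5 of 6 fits without 1 library (adjusted p up to 0.0897), and it had too few reads for the test in untreated against healthy samples. The myeloid markers, 12 of 15 of which are listed, summed to 33.4 to 36.7 normalised reads in healthy cartilage, 64.6 to 209 in untreated and 71.0 to 75.4 in CLCS treated defects. The untreated sums were 64.6 and 65.0 in the libraries other than library 3. Without TYROBP the sums were 24.4 to 30.2 in healthy cartilage, 51.2 to 58.0 in untreated and 36.1 to 47.5 in CLCS treated defects. All libraries from defects were above all healthy ones in the sums with and without TYROBP, whereas the ITGAM ranges overlap. In RefSeq's mOryCun1.1, CSF1R (2 to 18 reads) lies within 1000 bases of HMGXB3. HMGXB3 had 984 to 1513 normalised reads in healthy cartilage and 5108 to 10690.0 in untreated defects. CD14 (1 to 8 reads) overlaps TMCO6, with 1211 to 2330 reads, so reads of either gene of a pair may be counted on the other. Without CSF1R and CD14 (left out after their values had been seen), the sum was 25.4 to 30.7 in healthy cartilage, 48.0 to 189 in untreated and 56.8 to 58.1 in CLCS treated defects. A sum without TYROBP, CSF1R and CD14 together was not made. The sum without TYROBP was 36.1 in CLCS library 3, of which CSF1R gave 11.2 and CD14 2.49. In healthy library 1 it was 30.2, of which CSF1R gave 4.71 and CD14 1.88. Without all of these genes CLCS library 3 would therefore not lie above healthy library 1. CD68, a macrophage marker, had 9 to 16 reads in healthy, 14 to 23 in untreated and 2 to 20 in CLCS libraries. CD163 was at 0 in all healthy and CLCS libraries. PTPRC, another gene of the myeloid list, had 2 to 3 reads in healthy, 6 to 15 in untreated and 4 to 9 in CLCS libraries. It has no gene within 1000 bases in mOryCun1.1. The part of myeloid cells in the level of ITGAM was not tested. In these bulk samples fewer cells of a type and less RNA per cell cannot be told apart.

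**Figure D2:**
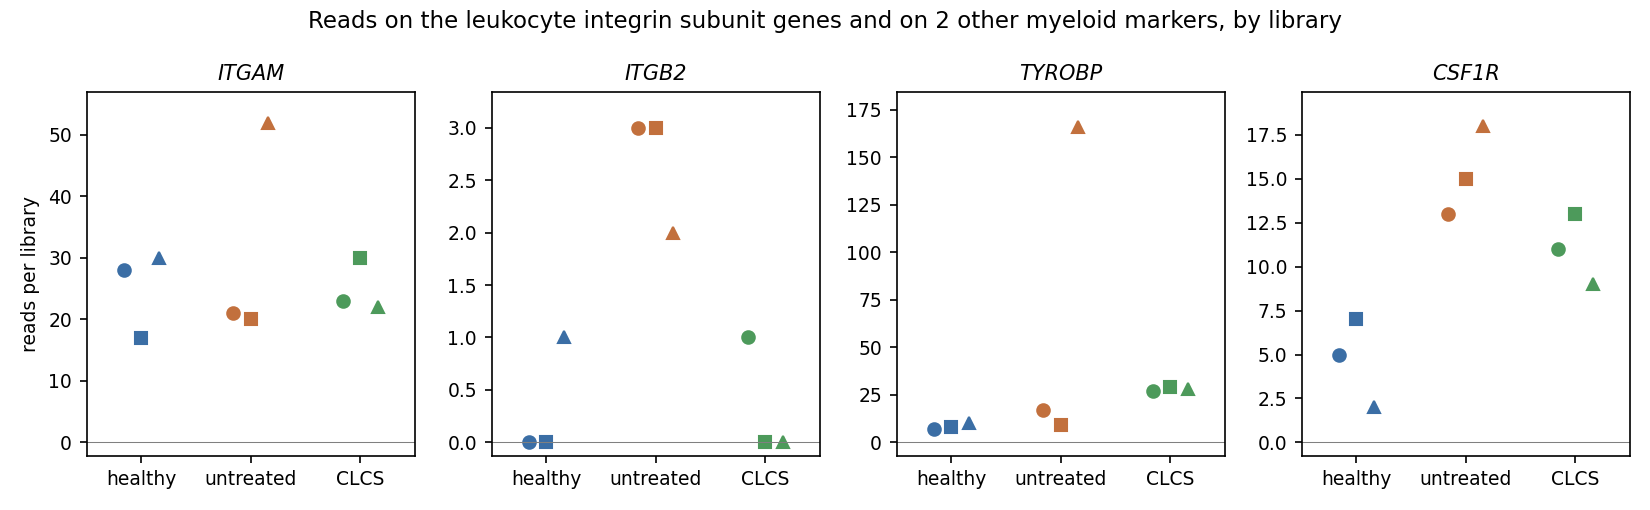
Reads per library (y axis, linear, recovered counts) on ITGAM, on its partner ITGB2 and on the myeloid genes TYROBP and CSF1R, with a circle, square and triangle for libraries 1, 2 and 3 of a group. ITGAM has 17 to 52 reads where ITGB2 has 0 to 3, and untreated library 3 is the highest for ITGAM and TYROBP; CSF1R lies beside a gene with many reads.

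ITGB1 encodes the beta 1 chain, the partner of the alpha 2, alpha 5, alpha 10 and alpha 11 chains. Its normalised reads were 23.6, 9.13 and 9.03 in healthy cartilage, 26.8, 14.0 and 21.8 in untreated defects and 16.5, 19.7 and 11.2 in CLCS treated defects. Healthy library 1 lay among the defects and the remaining healthy libraries below all of them. For ITGB1 the log2 fold change was 0.64 (SE 0.45, 95% interval -0.42 to 1.70) in untreated and 0.28 (SE 0.43, 95% interval -0.72 to 1.27) in CLCS against healthy samples, with limma adjusted p = 0.566 and 0.795. CLCS against untreated samples differed by -0.37 (95% interval -1.17 to 0.44). ITGA10 held 52.4% to 60.9% of the reads on ITGA10 and ITGB1 in healthy cartilage, 27.3% to 41.7% in untreated and 43.8% to 46.7% in CLCS treated defects, with 16 to 54 reads behind each share and no test. The exact 95% interval of healthy library 3 was 29.8% to 74.3%. Other planned shares overlapped between the groups. In the same order, ITGA10 held 18.6% to 45.3%, 16.4% to 28.6% and 14.3% to 37.0% of its reads with ITGA5. ITGA11 held 84.5% to 87.4%, 83.0% to 84.7% and 80.6% to 90.1% with ITGA5. With ITGB1 it held 90.3% to 97.1%, 89.0% to 94.6% and 92.8% to 95.1%.

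**Figure D3:**
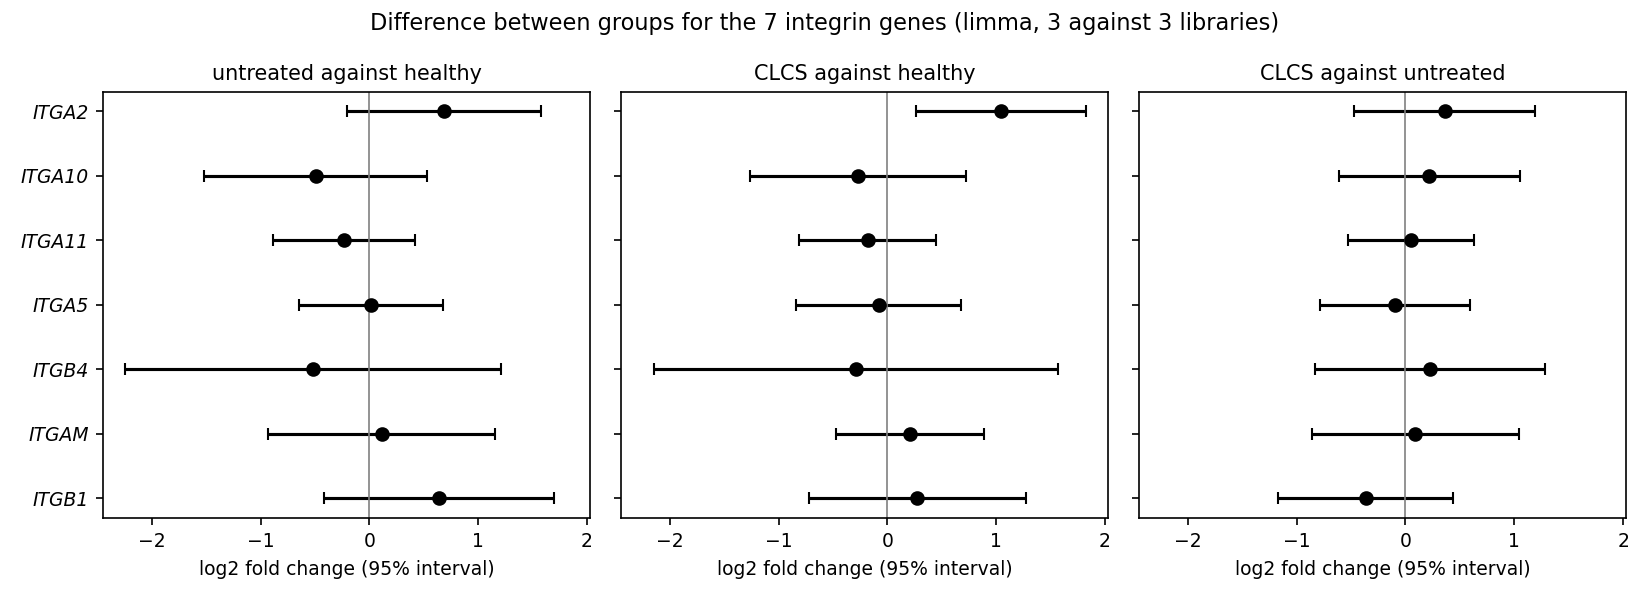
Log2 fold change (x axis) of the 7 integrin genes in the 3 comparisons of groups, from limma with 3 against 3 libraries, with bars for the 95% interval. Every interval includes 0 except that of ITGA2 in CLCS against healthy samples (0.26 to 1.82), and the widest are those of ITGB4.

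By receptor class, the collagen receptors ITGA2, ITGA10 and ITGA11 took 56.8% to 73.1% of the members' reads in healthy cartilage, 60.5% to 72.8% in untreated and 63.5% to 72.5% in CLCS treated defects. The fibronectin receptor ITGA5 took 9.23% to 9.86% of them in healthy cartilage, 10.6% to 11.7% in untreated and 6.67% to 13.7% in CLCS treated defects. The laminin receptor ITGB4 had the widest healthy range, 4.22% to 28.3%, against 6.40% to 9.38% in untreated and 4.97% to 12.7% in CLCS treated defects. The leukocyte subunit ITGAM took 3.41% to 7.39% in healthy cartilage, 4.45% to 12.8% in untreated and 6.73% to 7.17% in CLCS treated defects. The common beta chain ITGB1 took 1.81% to 6.60%, 3.73% to 7.20% and 2.93% to 4.68% of them in the same order. Of these classes, only ITGA5 in untreated defects had a share above the healthy range in all 3 libraries, which was given no test. The 7 genes together had 307 to 498 reads per library.

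Of the 19 other integrin subunit genes looked up, 14 are listed, and 0 of those had enough reads to be tested. The members held 90.5% to 96.1% of the reads on the listed family. They are also the only listed family genes with enough reads to be tested, so this share may follow from how they were chosen. Of the 14, 11 had at most 4 reads in any library, among them ITGA1, the alpha 1 collagen receptor, with 0 or 1 read, and ITGAV, the alpha V chain that binds vitronectin. ITGA2B, the platelet alpha chain, had the most, 30 reads in healthy library 3 and 4 to 11 in the other libraries. ITGB5 and ITGB7, beta chains of epithelial or mesenchymal cells and of lymphocytes, had at most 17 and 10 reads. In RefSeq's mOryCun1.1, ITGA4, with 0 or 1 read, overlaps CERKL, and ITGA1 overlaps PELO, which had 1 to 9 reads. ITGA7 (0 to 2 reads) overlaps TMT1B and ITGAE (0 to 4 reads) overlaps HASPIN, and neither symbol is among the genes listed. CERKL had 43.6 to 144 normalised reads in healthy cartilage, 553 to 1045 in untreated and 201 to 491 in CLCS treated defects. Whether reads of these subunits were counted on such neighbours was not tested, so low counts do not show that a subunit was absent.

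Integrin tails are linked to actin by talin, kindlin, filamin, tensin and the kinase ILK. Of 30 genes of activation and focal adhesion, 20 are listed and 9 were tested in untreated against healthy samples, where limma called 0, with a median log2 fold change of -0.24. In CLCS against healthy samples 8 were tested and 1 fell, TLN1, with a median of -0.35 over the list. TLN1 encodes talin 1, which binds the beta chain and switches integrins on. Normalised reads of TLN1 were 49.9, 150 and 102 in healthy cartilage, 18.1, 15.0 and 26.3 in untreated defects and 19.6, 19.7 and 14.9 in CLCS treated defects. All 6 libraries of defects lay below all healthy libraries. The log2 fold change was -2.29 (SE 0.42, limma adjusted p = 0.0375) in CLCS and -2.19 (SE 0.46, limma adjusted p = 0.0616) in untreated against healthy samples, and it was not tested whether these differ. In untreated against healthy samples 4 of 14 alternatives called TLN1, with an adjusted p of 0.0455 at a pseudocount of 4, 0.0194 with all 9 libraries, 0.0461 with edgeR and 0.000525 with DESeq2. When single libraries were left out, 5 of 6 fits of CLCS against healthy samples lost the call, and the adjusted p of limma lay between 0.0258 (without healthy library 1) and 0.140 (without CLCS library 1). In the RefSeq annotation of the mOryCun1.1 assembly, TLN1 overlaps CREB3, which had 56 to 120 reads, so reads of either gene may be counted on the other.

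Of the tensins, TNS2 had 229, 201 and 237 normalised reads in healthy cartilage, 129, 50.0 and 62.6 in untreated and 103, 139 and 143 in CLCS treated defects. The healthy libraries were above all others, and limma gave a log2 fold change of -1.57 (adjusted p = 0.0930) in untreated and -0.80 (adjusted p = 0.179) in CLCS against healthy samples. For the untreated difference, 2 of 14 alternatives called TNS2, with an adjusted p of 0.0406 in limma with all 9 libraries and 0.0218 with DESeq2. TNS2 lies within 1000 bases of SPRYD3, which had 3460 to 9450 reads. ILK and BCAR1, a kinase and a docking protein of adhesion sites, had log2 fold changes between -0.29 and 0.07. For VCL (vinculin) the values were -0.15 and 0.21, and for the filamin FLNA -1.06 and -1.27 with adjusted p = 0.240 and 0.236 by limma.

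The collagens are the ligands of the alpha 2, alpha 10 and alpha 11 chains. Of 11 collagen genes, 9 are listed and tested, and limma called 2, COL1A1 and COL1A2, both higher in either kind of defect than in healthy cartilage. COL1A1 had 247, 95.4 and 36.1 normalised reads in healthy cartilage, 1542, 795 and 1925 in untreated and 2052, 1208 and 1326 in CLCS treated defects. The log2 fold change of COL1A1 was 3.79 (SE 0.70, limma adjusted p = 0.0398) and 3.95 (SE 0.65, limma adjusted p = 0.0277). COL1A2 had log2 fold changes of 3.68 (adjusted p = 0.0292) and 3.53 (adjusted p = 0.0288) by limma. The median over the 9 collagens against healthy samples was -0.13 in untreated and 0.71 in CLCS treated defects. COL2A1, the ligand of the alpha 10 chain in cartilage, had 458 to 8816 normalised reads in untreated and 8971 to 25533 in CLCS treated defects, and limma did not call it in any comparison.

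Fibronectin is the ligand of the alpha 5 chain, and a list of 10 genes holds it with other adhesive matrix proteins, several of them bound by alpha V receptors. All 10 are listed, and limma called 1 of the 7 tested in untreated samples and 2 of the 6 tested in CLCS samples as higher than in healthy ones. POSTN (periostin) had 6.60, 1.01 and 0 normalised reads in healthy cartilage, 68.5, 38.0 and 96.1 in untreated and 67.2, 63.0 and 59.8 in CLCS treated defects. Its log2 fold change was 4.69 in both, with limma adjusted p = 0.0286 and 0.0168. IBSP (bone sialoprotein) rose by 2.46 (SE 0.40, limma adjusted p = 0.0277) in CLCS against healthy samples and differed by 2.24 (SE 0.63, limma adjusted p = 0.125) in untreated against healthy samples. FN1, fibronectin itself, had 3436, 721 and 913 normalised reads in healthy cartilage, 1158, 540 and 802 in untreated and 558, 560 and 1048 in CLCS treated defects. The ranges overlap, with log2 fold changes of -0.72 and -0.93 and limma adjusted p = 0.657 and 0.487. Without healthy library 1 they were -0.030 and -0.23.

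Over all tested genes, the fits that left out 1 library made 2 to 7 calls in untreated and 0 to 81 in CLCS against healthy samples, so a call lost there by itself says little of its gene. COL1A1 lost its call in 6 of 6 for untreated and 5 of 6 for CLCS against healthy samples, with limma adjusted p up to 0.108 and 0.120 and a log2 fold change of at least 3.11 and 3.27. COL1A2 lost it in 5 of 6 fits of each comparison, with adjusted p up to 0.103 and 0.121 by limma and log2 fold changes of 3.21 to 4.37 and 3.06 to 4.22. POSTN lost it in 5 of 6 and in 3 of 6, with log2 fold changes of 4.03 to 5.50 and 4.04 to 5.50, and IBSP in 4 of 6, with 2.17 to 2.87. Each of the fits without 1 CLCS library ended the calls of these genes in CLCS against healthy samples. The fibroblast markers, which include COL1A1, COL1A2 and POSTN, moved with them, and their 10 listed genes summed to 516 to 1041 normalised reads in healthy cartilage, 1721 to 4910 in untreated and 2422 to 3970 in CLCS treated defects. Bone cell markers summed to 317 to 932, 1028 to 3057 and 1881 to 2472. Their part in the integrin levels was not tested.

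**Figure D4:**
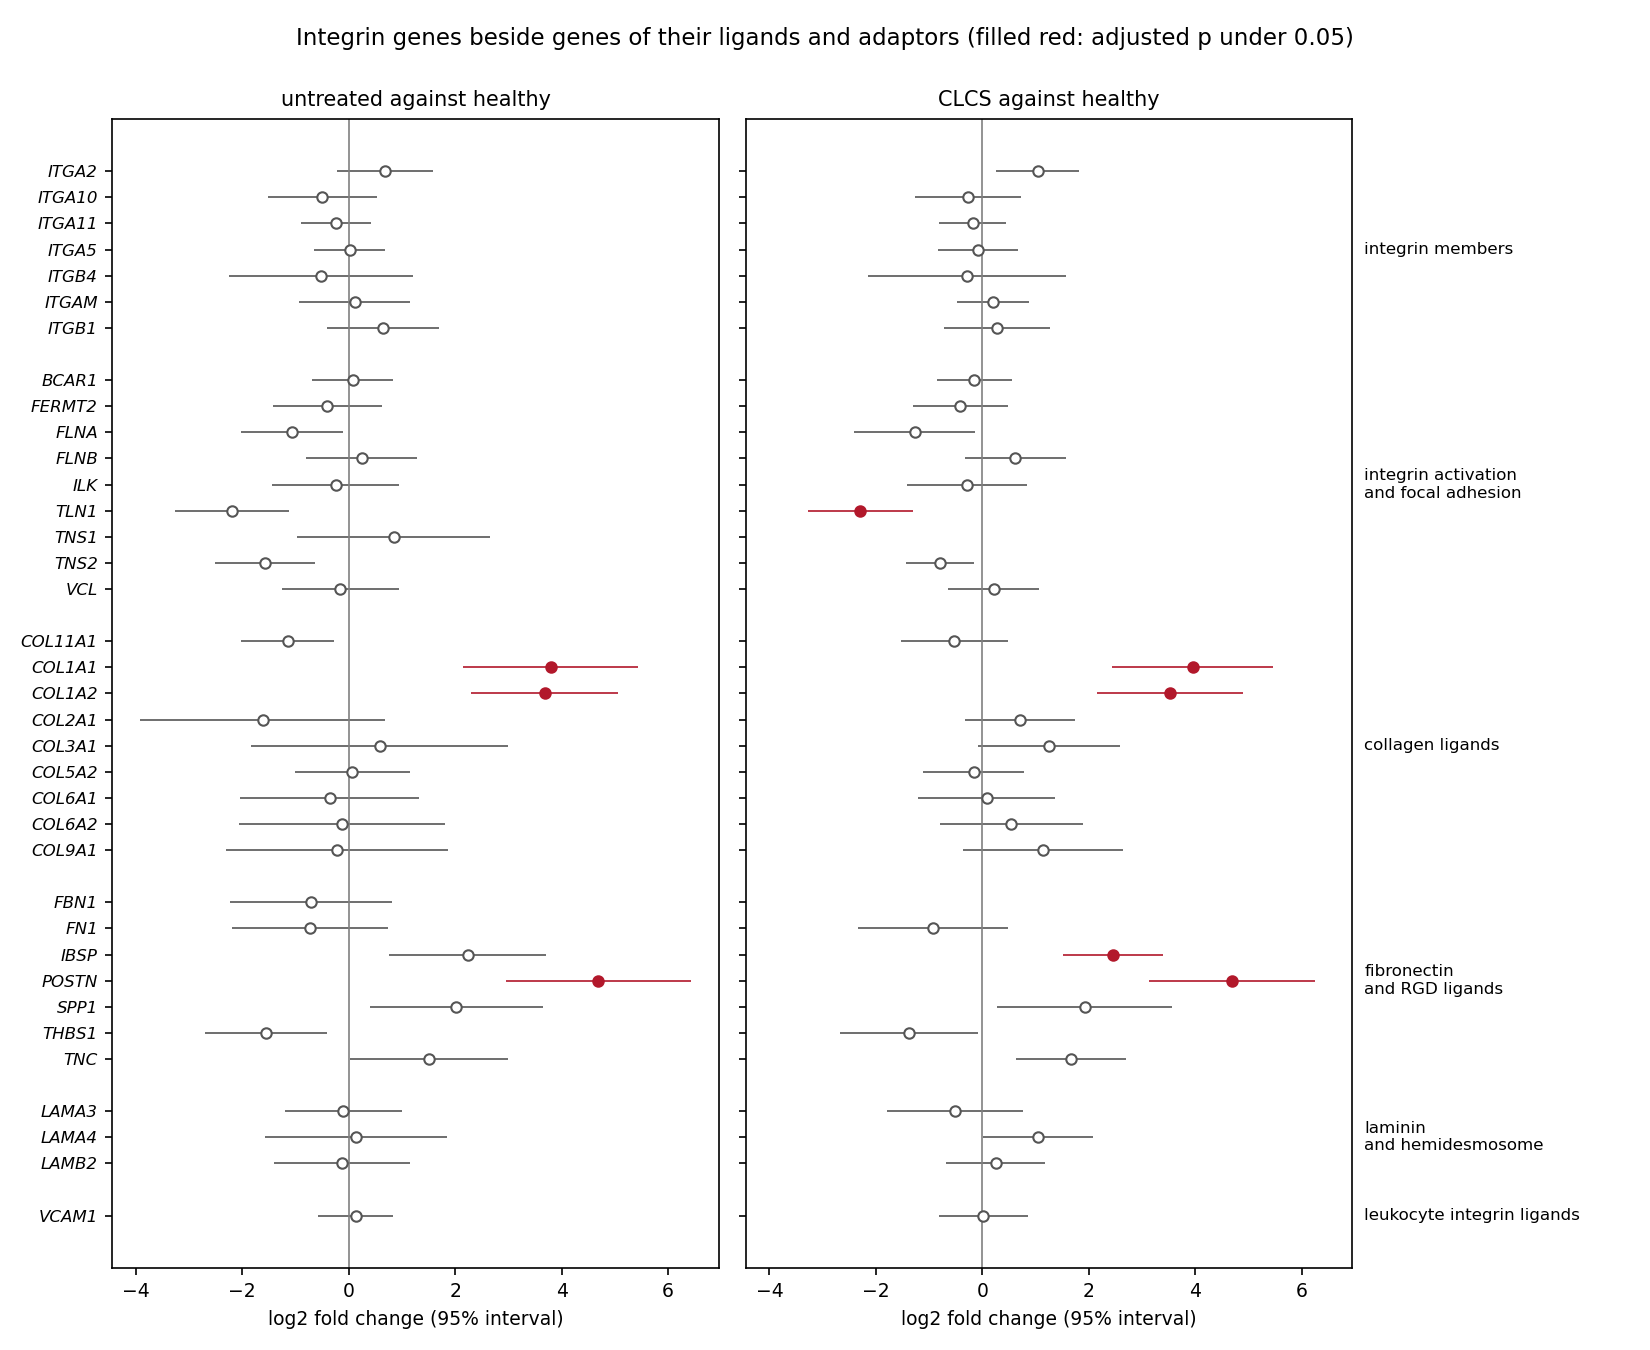
Log2 fold change (x axis, with 95% interval) of the 7 integrin genes and of the tested genes of their adaptors and ligands, for both defect groups against healthy samples, with genes of an adjusted p under 0.05 in filled red. COL1A1, COL1A2 and POSTN are red in both panels, TLN1 and IBSP in the CLCS panel, and no integrin gene is red in either.

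Of 15 laminin and hemidesmosome genes 9 are listed, 3 were tested (LAMA3, LAMA4 and LAMB2) and limma called 0 in any comparison. COL17A1, a hemidesmosome collagen, had 0 reads in the healthy and CLCS libraries. Of 8 ligands of leukocyte integrins 5 are listed and 1 was tested, VCAM1, with log2 fold changes of 0.13 and 0.02 against healthy samples.

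Genes with a level pattern most like that of a member over the 9 libraries were found by the smallest root mean square difference of centred log2 values, among 3117 genes. For ITGA2 they were ETFDH (0.24 on the log2 scale, where ITGA2 itself varied by 0.56) and ETNK2 (0.31). For ITGA10 they were BAZ2A (0.18) and SREK1 (0.22), and for ITGA11 NCOR1 (0.10) and SNAP25 (0.10). ITGA5 was nearest to PLEK2 (0.09) and METTL3 (0.15), ITGB4 to AMZ1 (0.43) and SEC61A1 (0.44), ITGAM to ZMYND12 (0.19) and TRUB2 (0.20), and ITGB1 to TAOK2 (0.22) and USP8 (0.23). The libraries share their size factors and the members their low depth, so these are descriptions only.

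Reads from overlapping genes could enter a member's count, or its reads another gene's, because the strand setting of the count is not stated. ND6, which lies on the opposite strand from the other mitochondrial protein genes, took 86.0% to 94.4% of the reads on the 13 listed. Whether reads were counted on the opposite strand was not tested, so the member values may not be levels of the integrin transcripts. In RefSeq's mOryCun1.1 annotation, which is not the assembly of the alignment, ITGA11 overlaps CALML4, which had at most 4 reads in any library, and a long noncoding RNA. ITGAM and ITGB4 overlap long noncoding RNAs and ITGA10 a pseudogene. ITGA5 and ITGB1 have no gene within 1000 bases.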

How the data were processed

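The 9 libraries were grouped by the labels and column headers as healthy, untreated and CLCS, with 3 in each. What the authors deposited is a normalized signal for each gene: per their methods, polyA RNA was sequenced, aligned to OryCun 2.0 with TopHat and Bowtie, counted per gene with eXpress and normalized with DESeq2. Versions and strand setting are not given in the sources used here. Both tables carry the same 3 healthy columns, which were taken from 1 table. Columns of the authors' own comparisons were not used. Each value is a whole multiple of 1 read (100% of values within 0.001), so reads were recovered, 724986 to 1226408 per library, which leaves members with few reads imprecise.

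limma 3.58.1 (lmFit, eBayes) in R 4.3.3 was run on log2 of the value plus 1 for the 6 libraries of a pair, after filterByExpr of edgeR 4.0.16 on recovered reads, with Benjamini-Hochberg adjustment. edgeR and DESeq2 1.42.0 on recovered reads, other pseudocounts (0.5 and 4), no filter, TMM scaling, all 9 libraries, a replicate block and leaving out each library were alternatives. The procedure was tested on simulated data. Exact permutation tests, planned for members under the filter, were not needed. Equal replicate numbers were read as possible pairs where all deviations of same-numbered libraries from their group means correlated across genes above 0.1. This held for CLCS with healthy (0.14 to 0.28) and with untreated libraries (0.25 to 0.33), but not for healthy with untreated libraries (-0.04 to 0.29). The labels give no pairs. The main fits had no block, so their intervals and p-values do not use such pairs, and the replicate block was an alternative only.

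Members, gene lists and tests were chosen with earlier results of these data known. Named genes were all members, other integrin subunits, called genes of each list and its highest genes, and the 2 genes nearest to a member in pattern. MATN1 and the other chondrocyte markers given beside COL2A1 were named after their values were seen, as were markers of other cell types at or near 0 (KRT5, TP63, CD163). So were COL17A1, EPCAM, CSF1R, CD14, CD68, PTPRC, ITGBL1, CERKL, PELO, TMT1B, HASPIN and ND6. RefSeq coordinates come from another assembly and are not printed.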

Additional observations from a re-analysis of the deposited data

How the results depend on the processing

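No member was called under any of the 14 alternatives of a comparison. Of 294 alternative log2 fold changes of members, 276 kept their direction and 18 turned, all within intervals that include 0. In CLCS against untreated samples ITGAM turned to -0.040 with edgeR and -0.035 with DESeq2. The others turned on leaving out 1 library. In untreated against healthy samples these were ITGA5 (-0.14 and -0.02, range of such fits -0.14 to 0.14), ITGB4 (-1.26 to 0.32) and ITGAM (-0.33 to 0.40), with -0.09 for ITGAM without healthy library 2. In CLCS against healthy samples they were ITGA10 (-0.58 to 0.10), ITGA5 (-0.29 to 0.14, with 0.04 without healthy library 2) and ITGB4 (-1.03 to 0.55, with 0.21 without CLCS library 1), and in CLCS against untreated samples ITGA11 (-0.037 to 0.13), ITGA5 (-0.31 to 0.12), ITGB4 (-0.060 to 0.73) and ITGAM (-0.19 to 0.53). Over all genes, limma called 89 in untreated against healthy samples, and 20 without a filter, 173 with all 9 libraries, 275 with DESeq2 and 2 to 7 without 1 library. In CLCS against healthy samples it called 104, and 13 without a filter, 243 with DESeq2 and 0 to 81 without 1 library, with 0 without CLCS library 1. The causes were not tested. The fits without 1 library have fewer samples and also lack the values of that library, and these cannot be told apart. With the replicate block, 94, 125 and 0 genes were called in the 3 comparisons, and no member. With 7 to 333 reads per member, small differences cannot be resolved.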

Other observations

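ITGBL1 encodes a secreted integrin beta-like protein that is no receptor chain. It had 31, 2 and 8 reads in healthy cartilage, 4, 0 and 0 in untreated and 3, 1 and 1 in CLCS treated defects, too few for the test. Lymphocyte markers, 5 of 10 of them listed, summed to 102 to 121 normalised reads in healthy cartilage, 72.5 to 107 in untreated and 72.2 to 94.0 in CLCS treated defects, and endothelial markers to 55.1 to 76.1, 40.8 to 76.0 and 52.2 to 66.1. Skeletal muscle markers summed to 14 to 52 reads in healthy cartilage and at most 12 in defects. EPCAM, an epithelial gene, had 29 to 57 reads in every library.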
